A study of Mus musculus with 15 samples.

Results

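Ribosome biogenesis genes were examined as a set of 42 mouse genes, taken by symbol from the count tables of 15 polyA RNA-seq libraries of mouse embryonic stem cells (mESCs, line v6.5, male). The tables listed 23412 genes, 14508 of which had enough reads to be tested, and all 42 members were among them. The libraries came from 5 conditions with 3 replicates each: Stag1-/- cells with siGLO, wild-type cells with siGLO or siStag1, and Stag2-/- cells with siGLO or siStag1. siGLO is a transfection control and siStag1 an siRNA against Stag1; every well, the controls included, received 50 nM of one or the other for 48 hours. Stag1 and Stag2 encode alternative subunits of cohesin, the ring complex that folds chromosomes into loops. Each knockout genotype was 1 CRISPR/Cas9 clone carrying a small homozygous deletion, so the replicates are repeats of a clone and an effect of genotype cannot be told apart from an effect of the clone. The p-values below measure only the spread between such repeats.

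Ribosomes are built in the nucleolus. RNA polymerase I transcribes a long precursor rRNA there, small nucleolar ribonucleoproteins (snoRNPs) guide its chemical modification, and successive assembly factors cut, fold and dress it into the small and the large subunit. Rapidly dividing cells such as mESCs make many ribosomes, and many biogenesis genes are known targets of the transcription factor MYC. The members were read by role: the box C/D and H/ACA snoRNP cores, nucleolar chaperones and scaffolds, RNA polymerase I, the UTP-A subcomplex and other parts of the small subunit processome, late small subunit factors, the PeBoW complex, NOC and RNA methylation factors, other large subunit factors, and regulators of rRNA synthesis.

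Libraries held between 14982560 and 19070126 counts on genes, and the median was 17700059. In the Stag2-/- siGLO libraries Stag2 was at 663 to 739 normalized counts against 2329 to 2334 in wild-type siGLO cells. With siStag1, Stag1 was at 353 to 517 in wild-type and at 629 to 781 in Stag2-/- cells, against 2012 to 2288 in wild-type siGLO cells. Stag1 counts of 1826 to 2368 in the Stag1-/- clone do not check its label, because the reads fall over the whole gene and the deletion is small. The 10 stem cell markers summed to between 77056 and 124660 normalized counts in every library. The 6 endoderm markers summed to 3525 to 3902 in wild-type siGLO cells, to 307 to 488 in Stag1-/- cells and to 650 to 1044 in Stag2-/- siGLO cells, and all 6 fell in both. In Stag2-/- siGLO cells 4 of 10 stem cell markers were also lower and 1 higher, 3 of 4 neural markers and 1 of 5 fibroblast (feeder) markers were higher, 1 of 4 trophoblast markers was lower, and of 5 mesoderm markers 3 were higher and 1 lower. In Stag1-/- cells 3 of 4 trophoblast markers were higher, 1 neural marker was lower, and of the stem cell markers 1 was higher and 1 lower. In replicate 1 against replicate 3, 4 stem cell, 2 endoderm and 1 fibroblast marker were higher, and 1 stem cell, 1 fibroblast, 1 mesoderm and 1 neural marker were lower. Against replicate 2, 2 stem cell, 2 endoderm and 1 neural marker were higher in replicate 1 and 1 mesoderm marker was lower, and 1 stem cell marker was higher in replicate 2 than in replicate 3. The part of these cell-state differences in the results below was not tested, and in bulk RNA fewer cells of a type and less RNA per cell cannot be told apart. Normalized counts are TMM-adjusted counts at a common depth of 17409359 per library, and fold changes are log2 values from edgeR with their standard error (SE).

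Most members were highly expressed in wild-type siGLO cells. Counts per kb of exon, the scale on which genes can be compared, placed 38 of the 42 at or above percentile 75, and 23 at or above percentile 90, of 13617 genes. Npm1, a histone and ribosome chaperone, stood first at 16824 ± 1648 normalized counts per kb (SD, n = 3), followed by Ncl, which encodes nucleolin, at 5502 ± 910 and by the H/ACA protein gene Nhp2 at 3898 ± 467. The other 39 members lay between 2491 for Mybbp1a and 124 for Taf1d, a component of the RNA polymerase I promoter factor. Neighbouring genes in this order often overlapped within their SD, for example Nolc1 at 1748 ± 378 and Npm3 at 1736 ± 204.

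**Figure D1:**
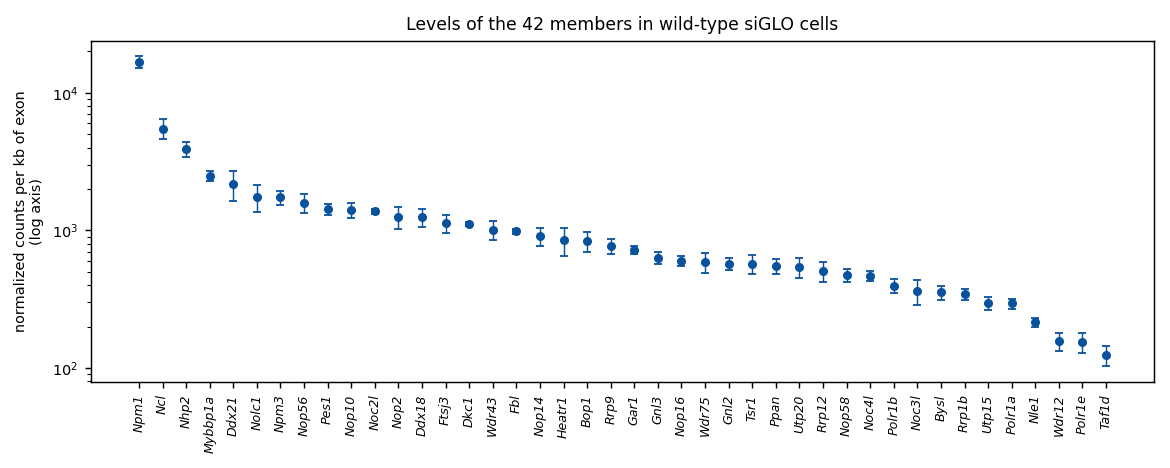
Normalized counts per kb of exon of the 42 members in wild-type siGLO cells (log axis), ordered by level. Points are means and bars the SD of 3 libraries. Npm1 stands highest at 16824 and Taf1d lowest at 124.

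The members are spread over 16 chromosomes. According to the GENCODE M21 annotation of mm10, 9 of the 42 (21.4%) hold at least 1 snoRNA gene within their bounds, 31 snoRNAs in all, compared with 289 of 13617 genes (2.12%). Taf1d held the most, 8, followed by Nop56 with 5 and Nop58 with 4. The exons of 16 members overlap those of another counted gene, on the opposite strand in each case, by 1240 bases for Tsr1 with Srr and by 598 for Noc2l with Samd11. Ddx18 shares 22.6% of its 150-base stretches with other annotated genes, Tsr1 16.2%, Noc2l 15.7% and Fbl 12.2%, so the counts of these 4 are less certain than those of the rest.

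Promoter sequences were available for 37 of the 42 members, as RefSeq windows of GRCm38.p6. Of the motifs searched in the 300-base windows on both strands, CACGTG, the E-box that MYC and other factors can bind, was in 7 of 37 members (18.9%) compared with 11.7% of tested genes and 8.09% of all genes. GGGCGG, the GC box, was in 28 members (75.7%) and in 68.9% of tested genes. CCAAT was in 12 members (32.4%) and in 42.8% of tested genes. TATAAA was in 3 (8.11%) and 8.85%, and CGCATGCG in none against 4.17%. The 7 with an E-box were Mybbp1a, Nle1, Nop2, Pes1, Tsr1, Utp20 and Wdr43, and only that of Nop2 lay upstream of the start, 60 bases from it. A match is a description of the letters in this window. The 120 bases upstream of the start are given here for 4 members: Gar1 and Npm3, whose level was highest in Stag2-/- cells, and Ddx21 and Nop2, among those that differed most between replicate numbers. Capitals mark E-boxes and GC boxes.
Gar1, chr3:129831397-129831516, minus strand: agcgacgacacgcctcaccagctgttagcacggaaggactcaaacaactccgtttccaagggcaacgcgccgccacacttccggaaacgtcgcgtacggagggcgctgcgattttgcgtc
Npm3, chr19:45749566-45749685, minus strand: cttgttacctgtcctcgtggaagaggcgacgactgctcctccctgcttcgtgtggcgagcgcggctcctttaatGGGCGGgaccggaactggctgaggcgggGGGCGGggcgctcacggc
Ddx21, chr10:62602299-62602418, minus strand: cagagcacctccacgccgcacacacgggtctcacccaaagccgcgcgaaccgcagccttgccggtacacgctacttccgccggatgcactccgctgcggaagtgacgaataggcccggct
Nop2, chr6:125131763-125131882, plus strand: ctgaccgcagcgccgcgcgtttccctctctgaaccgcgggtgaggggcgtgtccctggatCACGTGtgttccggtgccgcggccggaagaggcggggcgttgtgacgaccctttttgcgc
The Npm3 stretch holds 2 GC boxes, the Nop2 stretch 1 E-box, and the stretches of Gar1 and Ddx21 none of the motifs searched.

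Of the comparisons fitted, those of replicate 1 with replicates 3 and 2 gave the largest median differences of the members. The labels number the replicates 1 to 3 in every condition, and what the number stands for was not given in the sources used here. In each of the 5 conditions the members' median level was highest in the library numbered 1 and lowest in that numbered 3. As a log2 difference from the wild-type siGLO mean, the median member was at 0.18, 0.00 and -0.17 in wild-type siGLO libraries 1, 2 and 3. In Stag1-/- siGLO it was at 0.26, 0.07 and -0.01, and in Stag2-/- siGLO at 0.37, 0.15 and -0.04. Wild-type siStag1 gave 0.09, 0.03 and -0.09, a narrower range than the others. Stag2-/- siStag1 gave 0.34, -0.07 and -0.17. Together the members took 1.23% to 1.65% of counts on genes, again highest in number 1 of each condition.

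**Figure D2:**
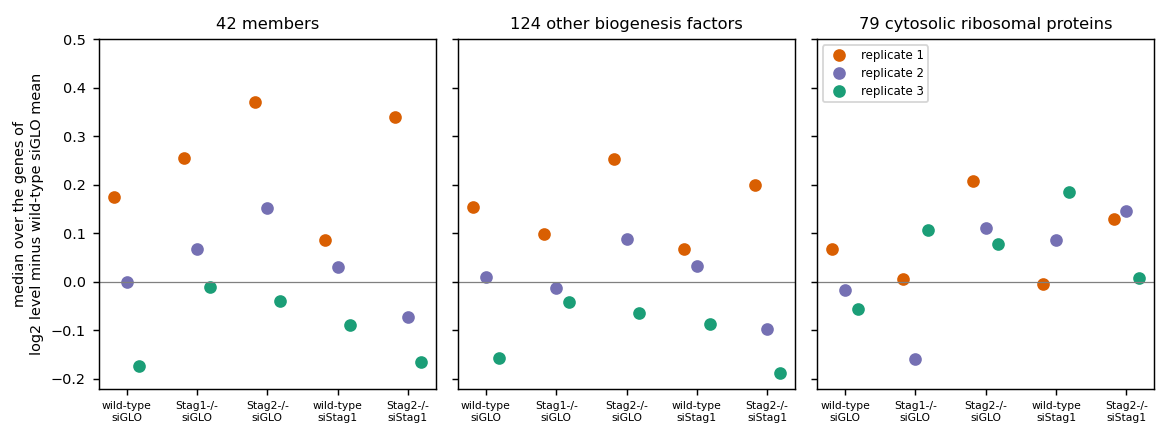
Median log2 level, relative to the wild-type siGLO mean, of the 42 members, of 124 other biogenesis factors and of 79 cytosolic ribosomal protein genes, per library and condition. Colours give the replicate number. Number 1 is highest and number 3 lowest in all 5 conditions for both sets of biogenesis factors and not for the ribosomal proteins.

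The comparison of replicate numbers was chosen after these values were seen. It was fitted with the condition as the other term. Of the 42 members, 38 were higher in replicate 1 than in replicate 3 (adjusted p under 0.1) (90.5%, compared with 16.6% of all tested genes) and 0 lower (17.7% of all genes), and the median log2 difference was 0.33. Against replicate 2, replicate 1 was higher for 27 members (64.3%, and 8.11% of all genes) and lower for 0 (7.77% of all genes), and the median was 0.19. Replicate 2 exceeded replicate 3 for 8 members (19%, and 0.71% of all genes) and was below it for 0 (0.703% of all genes), and the median was 0.12. The 8 calls between replicates 2 and 3 rested on single libraries: 0 were left without replicate 2 or 3 of wild-type siGLO, wild-type siStag1 or Stag2-/- siGLO or without Stag1-/- replicate 2, and 16 were called without Stag2-/- siStag1 replicate 2. Between replicates 1 and 2 the count was 15 and 16 without Stag2-/- siGLO replicate 1 and 2, and 13 without Stag2-/- siStag1 replicate 1 or 2. Fitted values were above 0 for all 42 members in both comparisons of replicate 1, against 49.2% and 47.4% of tested genes. For 22 members (52.4%) the library numbered 1 was the highest in all 5 conditions, which held for 6.58% of tested genes, and for 20 (47.6%) the library numbered 3 was the lowest in all 5, which held for 4.35%.

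Ddx21, an RNA helicase that acts in rRNA transcription and processing, had the largest difference between replicates 1 and 3. Its normalized counts were 14237, 11042 and 8662 in wild-type siGLO libraries 1, 2 and 3, and 13757, 11983 and 9972 in Stag1-/- siGLO. They were 15057, 12781 and 10272 in Stag2-/- siGLO, 12562, 11348 and 8920 in wild-type siStag1, and 14926, 10125 and 9605 in Stag2-/- siStag1. Each condition repeated the same order of libraries, and the values of the 5 conditions overlapped. The log2 difference was 0.57 (SE 0.06, edgeR adjusted p = 2.58e-05). Heatr1, the largest protein of the UTP-A subcomplex, was at 7938, 6962 and 4973 in wild-type siGLO and at 7382, 4997 and 5119 in Stag2-/- siStag1, with a difference of 0.56 (SE 0.07, adjusted p = 1.00e-04). Bysl, a late small subunit factor, differed by 0.50, Rrp12, which acts in export of the small subunit, by 0.49, Nop2, an rRNA methyltransferase, by 0.48 and Bop1, a PeBoW member, by 0.48, all called. By role, all members of 8 of the 11 groups were called, and so were 2 of 4 H/ACA genes, 3 of 4 chaperones and scaffolds and 6 of 7 other large subunit factors.

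The following 4 members were not called between replicates 1 and 3. Gar1 was at 0.04 (SE 0.08, adjusted p = 0.743), Npm3 at 0.09 (SE 0.07, adjusted p = 0.393), Nop10 at 0.19 and Gnl3, a nucleolar GTPase, at 0.17. Fbl, called at 0.15 (adjusted p = 0.0931), was the lowest of those that passed. The genes with the smallest replicate difference, Gar1, Npm3 and Fbl, are also among the genes called between conditions below. Those calls come from a fit without a replicate term, where a replicate difference widens the SE of a gene. A small replicate difference therefore makes such a call easier.

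Other biogenesis factors moved likewise with replicate number. Of 124 further factors of rRNA transcription, processing and decay, listed apart from the members, 102 were higher and 0 lower in replicate 1 than in replicate 3, with a median of 0.27. Among 79 cytosolic ribosomal protein genes 2 were higher and 1 lower, with a median of 0.03. Myc, which encodes the transcription factor, was at 554, 419 and 207 normalized counts in wild-type siGLO, 990, 379 and 202 in Stag2-/- siGLO and 797, 308 and 210 in Stag2-/- siStag1. In Stag1-/- siGLO it was at 824, 485 and 598, and in wild-type siStag1 at 642, 747 and 420. The library numbered 1 was highest in 4 of these 5 conditions. Myc was 1.32 higher in replicate 1 than in replicate 3 (SE 0.23, adjusted p = 8.28e-04), and Mycn 0.24 (adjusted p = 0.0281). Of the 10 genes listed for the MYC family and its partners 3 were higher and 0 lower, 5 lay above 0, and the median was 0.05. The TMM factor, which scales each library, was highest in number 3 in all 5 conditions. With library size alone as the scaling, 35 members were called between replicates 1 and 3, 18 between 1 and 2 and 6 between 2 and 3, all higher in the lower-numbered replicate, and the medians were 0.28, 0.16 and 0.10. The part of Myc in the members' differences was not tested.

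**Figure D3:**
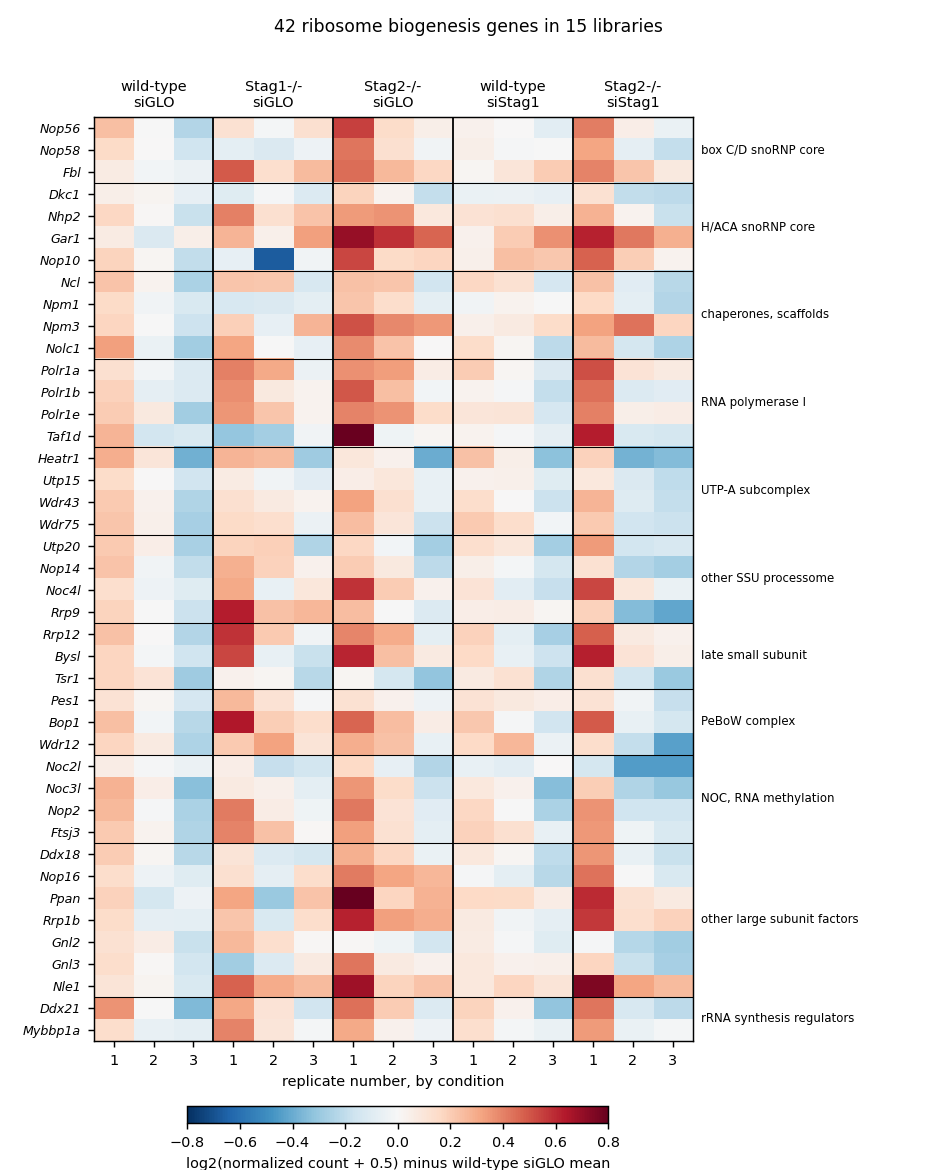
Level of each of the 42 members, by role, in the 15 libraries, as log2(normalized count + 0.5) minus the wild-type siGLO mean (red higher, blue lower). Columns run by condition and, within it, by replicate number. Red gathers in the columns numbered 1, most of all in Stag2-/- siGLO and Stag2-/- siStag1, and blue in those numbered 3.

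Stag2-/- siGLO cells, compared with wild-type siGLO cells, had 7 members higher (16.7%, compared with 13.9% of all genes) and 0 lower (14.4% of all genes). The members' median log2 fold change was 0.17 and 37 of 42 were above 0, whereas 50.8% of all genes were above 0 with a median of 0.01. The shift held within each replicate number: the median difference was 0.16, 0.15 and 0.16 in numbers 1, 2 and 3, with 36, 37 and 36 members above 0. The fitted median was 0.05 without Stag2-/- siGLO replicate 1 and 0.27 without wild-type siGLO replicate 1. Leaving out 1 library makes the replicate numbers unequal between the conditions, and this fit has no replicate term. The genes called were 4 large subunit factors (Ppan, Rrp1b, Nle1 and Nop16), 2 snoRNP components (Gar1 and Fbl) and the chaperone Npm3. With the replicate number as a block, 18 members were higher (42.9%, and 19.9% of all genes) and 0 lower (19.6% of all genes). The deviations of same-numbered libraries of these conditions correlated above 0.1 in 2 of 3 pairs.

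Gar1 encodes a core protein of the H/ACA snoRNPs, which turn uridines of rRNA into pseudouridine. It was at 1286, 1136 and 1270 in wild-type siGLO, at 1989, 1844 and 1695 in Stag2-/- siGLO and at 1881, 1643 and 1498 in Stag2-/- siStag1. All 6 Stag2-/- libraries lay above the 3 wild-type siGLO libraries. Of all genes 17.1% were higher without overlap in Stag2-/- siGLO and 24% in Stag2-/- siStag1, against 14.3% and 7.14% of the members. Gar1 rose by 0.58 in Stag2-/- siGLO (SE 0.11, edgeR adjusted p = 0.00179) and by 0.44 in Stag2-/- siStag1 (SE 0.11, adjusted p = 0.00515). Stag1-/- siGLO cells had 1484, 1263 and 1544 and wild-type siStag1 cells 1260, 1416 and 1582, and these libraries overlapped both wild-type siGLO and Stag2-/- siStag1. Of the remaining H/ACA genes, Nhp2, the most highly counted over all 15 libraries, was at 4994, 4481 and 3925 in wild-type siGLO and 5621, 5700 and 4715 in Stag2-/- siGLO, with a fold change of 0.26 (SE 0.12, adjusted p = 0.133), and Dkc1, the pseudouridine synthase itself, was at 0.01 (SE 0.10).

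Npm3, a relative of Npm1, was at 2310, 2046 and 1826 in wild-type siGLO and at 2919, 2679 and 2613 in Stag2-/- siGLO, with no overlap. Its fold change was 0.41 (SE 0.10, adjusted p = 0.0113). Rrp1b, a factor of rRNA processing, was at 2911, 2502 and 2488 in wild-type siGLO and at 4029, 3303 and 3213 in Stag2-/- siGLO, again without overlap, and rose by 0.42 (SE 0.12, adjusted p = 0.0267). Nle1, which acts with a large ATPase in maturation of the large subunit, was at 742, 701 and 635 against 1105, 782 and 809, and rose by 0.38 (SE 0.14, adjusted p = 0.0710). Ppan was at 2495, 1985 and 2126 against 3809, 2474 and 2660, which overlap, and rose by 0.44 (SE 0.18, adjusted p = 0.0938). Nop16, at 1214, 1074 and 1030 against 1470, 1371 and 1325, rose by 0.33 (SE 0.12, adjusted p = 0.0723). Fbl, the 2′-O-methyltransferase of the box C/D snoRNPs, was at 4348, 4091 and 4027 against 5659, 4975 and 4649, and rose by 0.29 (SE 0.11, adjusted p = 0.0591).

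The calls of these genes rested in part on single libraries. Gar1 and Npm3 were called in Stag2-/- siGLO without any 1 of the 6 libraries. The count fell from 7 to 2 without wild-type siGLO replicate 2 or without Stag2-/- replicate 1, and to 3 without wild-type siGLO replicate 3.

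**Figure D4:**
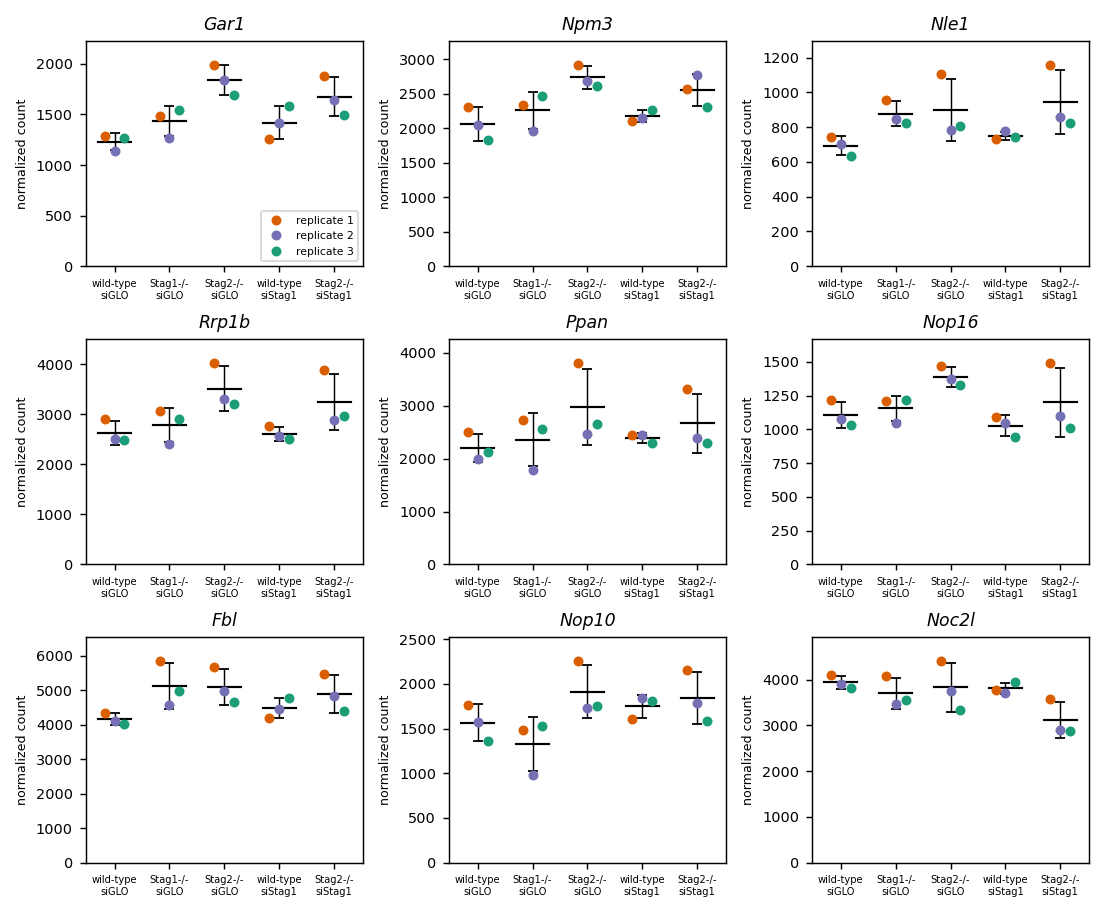
Normalized counts of the 9 members called in at least 1 comparison of conditions without the replicate block, per library (colours give the replicate number). Bars are means with the SD of 3 libraries, and axes start at 0. Gar1 in both Stag2-/- conditions lies above wild-type siGLO in all libraries, and Nop10 has 1 low Stag1-/- library.

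No further member was called in Stag2-/- siGLO cells in this fit, which has no term for the replicate number; the count of calls rises with such a term. The 4 RNA polymerase I genes among the members had fold changes between 0.25 and 0.30, all above 0. Of 16 further RNA polymerase I genes outside the members 10 lay above 0, with a median of 0.04, and 3 were higher and 2 lower. Polr1a, which encodes the largest subunit, was at 3819, 3443 and 3243 in wild-type siGLO and 4501, 4397 and 3647 in Stag2-/- siGLO (0.26, SE 0.14, adjusted p = 0.201). Nop56, a scaffold of the box C/D snoRNPs, was at 7632, 6451 and 5490 against 9432, 7166 and 6677 (0.25, SE 0.14), and the groups overlapped. Among the processome genes, Heatr1 was at -0.10 (SE 0.20), and Utp20, a scaffold of the small subunit precursor, was at 6292, 5639 and 4554 against 6108, 5373 and 4518 (-0.04, SE 0.16). Rrp12 was at 2553, 2171 and 1843 against 2849, 2663 and 2051 (0.20, SE 0.17). The ranges of both genes overlapped between the conditions. Ftsj3, an rRNA methyltransferase, was at 5624, 4959 and 4113 against 6106, 5282 and 4602 (0.12, SE 0.14), and Gnl3 at 4237, 3859 and 3466 against 5163, 4036 and 3931 (0.18, SE 0.13). Of the most highly counted members, Ncl was at 65095, 56513 and 46563 in wild-type siGLO and 65349, 64635 and 50048 in Stag2-/- siGLO (0.10, SE 0.15), and Mybbp1a, which binds MYB and acts in rRNA synthesis, was at 15892, 13819 and 13650 against 17772, 14760 and 14022 (0.10, SE 0.13).

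Of the 124 other biogenesis factors 10 were higher and 3 lower in Stag2-/- siGLO cells, with a median of 0.09. The largest rises were Polr2l, a subunit shared by the RNA polymerases, at 0.71 (SE 0.20, adjusted p = 0.0192) and Wdr46, a small subunit factor, at 0.52 (adjusted p = 0.0997). The largest falls were Urb2 at -0.49 (adjusted p = 0.0359) and Rrn3, an initiation factor of RNA polymerase I, at -0.34 (adjusted p = 0.0824). Among 79 ribosomal protein genes 16 were higher and 2 lower. Mycn was at 0.57 (SE 0.14, adjusted p = 0.00794) and Myc at 0.41 (SE 0.52, adjusted p = 0.608).

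**Figure D5:**
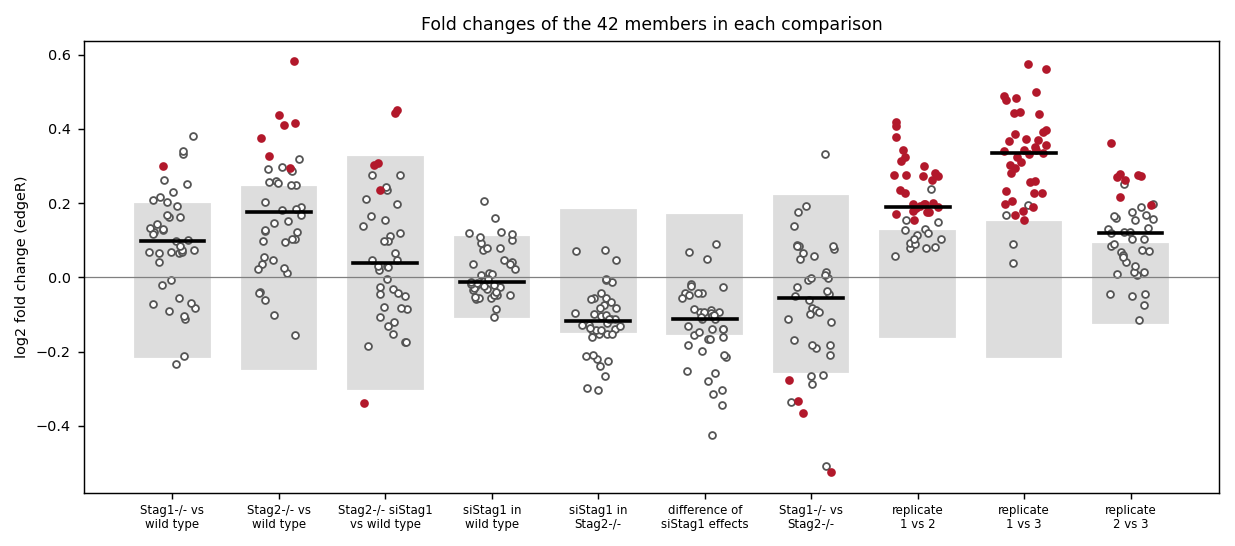
Log2 fold changes of the 42 members in each comparison (filled, called at adjusted p under 0.1; open, not called). Black lines are the members' medians and grey boxes the quartiles of all tested genes. The members lie mostly above 0 in Stag2-/- cells, below 0 with siStag1 in Stag2-/- cells and furthest above 0 between replicates 1 and 3.

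In Stag1-/- siGLO cells 1 member, Fbl, was higher than in wild-type siGLO cells (2.38%, and 10.1% of all genes) and 0 were lower (9.93% of all genes). Fbl was at 5840, 4555 and 4960 against 4348, 4091 and 4027, without overlap, and rose by 0.30 (SE 0.11, edgeR adjusted p = 0.0682). Of all genes 15.7% were higher without overlap, and of the members 7.14%. The members' median was 0.10 and 31 of 42 lay above 0, as did 48.1% of all genes. The median within replicate numbers was 0.03, 0.07 and 0.21, and the fitted median was 0.03 without Stag1-/- replicate 1 and 0.21 without wild-type siGLO replicate 1. Rrp9, a processome component bound to the U3 snoRNA, stood just outside the threshold at 0.38 (SE 0.15, adjusted p = 0.104), with 2535, 2235 and 1996 in wild-type siGLO and 3466, 2640 and 2698 in Stag1-/- cells.

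Same-numbered libraries of these conditions deviated together, and with the replicate number as a block 11 members were higher (26.2%, and 15.3% of all genes) and 0 lower (15.3% of all genes) in Stag1-/- cells. These were Bop1 at 0.33 (adjusted p = 0.00305), Rrp9 at 0.38 (adjusted p = 0.00500), Rrp12, Fbl, Nle1, Ftsj3, Nhp2, Polr1a, Mybbp1a, Wdr12 and Nop14. Bop1 and Wdr12 belong to the PeBoW complex, which matures the large subunit rRNAs, and its other member Pes1 was at 4678, 4357 and 3928 in wild-type siGLO and 5148, 4668 and 4290 in Stag1-/- cells (0.12, SE 0.09). Without the block, Fbl was not called when wild-type siGLO replicate 2 or 3 or Stag1-/- replicate 1 was left out, which left 0 members called, and 2 were called without wild-type siGLO replicate 1 or Stag1-/- replicate 2. Among the other factors 2 were higher and 2 lower, and Mycn rose by 0.53 (adjusted p = 0.0161).

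The knockouts were compared directly to see where the members differ between the clones. In Stag1-/- cells 4 members were lower (9.52%, and 12.9% of all genes) and 0 higher (12.7% of all genes) than in Stag2-/- siGLO cells: Nop10 at -0.52 (SE 0.16, adjusted p = 0.0328), Gar1 at -0.37 (SE 0.11, adjusted p = 0.0310), Rrp1b at -0.33 (SE 0.12, adjusted p = 0.0751) and Npm3 at -0.28 (SE 0.10, adjusted p = 0.0745). Nop10, the smallest H/ACA core protein, was at 1484, 982 and 1524 in Stag1-/- cells, at 2254, 1732 and 1755 in Stag2-/- siGLO and at 1763, 1575 and 1355 in wild-type siGLO. The value of 982 was the lowest of all 15 libraries, and without that library, Stag1-/- replicate 2, 0 members were called. Without Stag2-/- replicate 1 the count was 2 and without Stag2-/- replicate 3 it was 8. With the replicate block, 12 members were lower (28.6%, and 19.2% of all genes) and 2 higher (4.76%, and 18.1% of all genes), the latter being Rrp9 at 0.33 and Gnl2, a GTPase of large subunit assembly, at 0.19. With library size alone as the scaling 8 were lower and 1 higher. Beside these values, 3 stem cell markers were higher and 1 lower in Stag1-/- cells, 4 endoderm and 3 neural markers were lower, 2 trophoblast markers were higher, and of the mesoderm markers 1 was higher and 3 lower.

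Knockdown of Stag1 in wild-type cells called 0 members with edgeR, and 0.248% of all genes. DESeq2 called 0 as well, and 0 members had an unadjusted p under 0.05 (6.36% of all genes). The fitted changes ran from -0.11 for Nop16 to 0.21 for Gar1, with a median of -0.01 and a median SE of 0.14. A p that misses the threshold at this SE does not show that the members were unchanged. Within replicate numbers the median was -0.07, 0.04 and 0.07, and the fitted median was -0.09 without wild-type siGLO replicate 3 and 0.11 without wild-type siGLO replicate 1.

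In Stag2-/- cells with siStag1, compared with wild-type siGLO cells, 5 members were higher (11.9%, compared with 22.6% of all genes) and 1 lower (2.38%, compared with 21.3%). The members' median was 0.04 with 25 of 42 above 0, as were 50.4% of all genes. This median changed sign between libraries: it was 0.13, -0.06 and 0.04 within replicate numbers 1, 2 and 3, -0.13 without Stag2-/- siStag1 replicate 1 and 0.16 without wild-type siGLO replicate 1. Those higher were Nle1 at 0.45 (SE 0.14, adjusted p = 0.0199), Gar1 at 0.44, Npm3 at 0.31 (adjusted p = 0.0292), Rrp1b at 0.30 (adjusted p = 0.0673) and Fbl at 0.24 (adjusted p = 0.0915). All 5 were also called in Stag2-/- siGLO cells, in a comparison that shares the wild-type siGLO libraries. Nle1 was at 1158, 859 and 822, above the 3 wild-type siGLO libraries. Noc2l, a NOC protein that also binds histones, was the member called lower, at 3566, 2894 and 2887 against 4096, 3904 and 3814, without overlap. Of all genes 23.3% were lower without overlap, and of the members 2.38%. The fold change of Noc2l was -0.34 (SE 0.11, edgeR adjusted p = 0.0201). The exons of Noc2l overlap those of Samd11 on the opposite strand and the strand setting is not stated, so its counts are less certain. Its call and that of Gar1 held without any 1 library. Of the other factors 8 were higher and 8 lower, led by Polr2l at 0.71 and Ccdc86 at 0.61, and by Senp3 at -0.69 and Urb2 at -0.65. Markers of cell state moved beside these values: 7 of 10 stem cell markers were lower and 1 higher, 6 of 6 endoderm markers were lower, 2 of 4 neural and 2 of 5 fibroblast markers were higher, and of 5 mesoderm markers 3 were higher and 1 lower. The fit above has no replicate term. With the replicate number as a block, 10 members were higher (23.8%, and 27.5% of all genes) and 3 lower (7.14%, and 26.3% of all genes). Same-numbered libraries correlated above 0.1 in 2 of 3 pairs.

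Knockdown of Stag1 in Stag2-/- cells was compared with siGLO in the same clone. No member was called by edgeR (6.37% of all genes called) or by DESeq2, and 2 had an unadjusted p under 0.05 (16.7% of all genes). Of the 42 fitted changes 39 lay below 0, with a median of -0.12, whereas 51.1% of all genes lay above 0. Within replicate numbers the median was -0.05, -0.22 and -0.12, and the fitted median was -0.01 without Stag2-/- siGLO replicate 1 and -0.26 without Stag2-/- siStag1 replicate 1. The largest fall was Wdr12 at -0.30 (SE 0.14, adjusted p = 0.292), from 2256, 2170 and 1777 to 2034, 1620 and 1368. Noc2l followed at -0.30 (SE 0.11, adjusted p = 0.145), from 4404, 3753 and 3342. Of the markers, 5 of 10 for stem cells and 2 of 5 for mesoderm were lower in the same comparison. Same-numbered libraries deviated together here too, and with the block 4 members were lower (9.52%, and 6.91% of all genes) and 0 higher (7.22% of all genes), namely Wdr12, Noc2l, Nolc1, a snoRNP chaperone, and Nhp2. Without Stag2-/- siStag1 replicate 1 the count without the block was 5, and without Stag2-/- siGLO replicate 3 it was 1. The difference between the knockdown effects in Stag2-/- and in wild-type cells called 0 members (0.159% of all genes called, 0 by DESeq2, 2 at an unadjusted p under 0.05 beside 5.8% of all genes), with 39 of 42 below 0 and a median of -0.11, whereas 51% of all genes were above 0. Within replicate number 1 this difference had the opposite sign, with a median of 0.05 and 30 of 42 members above 0, against -0.26 and -0.21 in numbers 2 and 3. Its fitted median was -0.02 without Stag2-/- siGLO replicate 1 and -0.27 without Stag2-/- siStag1 replicate 1. In the difference 2 stem cell markers were lower.

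Over the 7 comparisons of conditions, fitted without the replicate block, 9 members were called at least once and 33 in none. With the block more were called in several comparisons, for example 11 in Stag1-/- and 18 in Stag2-/- siGLO cells against wild-type siGLO cells. For siStag1 in wild-type cells the count stayed at 0. A member called in none is therefore not shown to be unchanged. The fold changes of single members spanned -0.52 to 0.58. The members' median per library had an SD of 0.19 on the log2 scale between libraries of a condition. This SD includes the shift with replicate number and is not the error of a single member's fold change.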

How the data were processed

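PolyA RNA of mESCs was sequenced by the authors as paired-end reads and aligned to mm10 with STAR 2.6.0a; the counter, annotation and strand setting are not given in the sources used here. The deposited values are raw counts per gene symbol, 1 table per library. The 4 summary lines of each table, which name no gene, were left out of library sizes; they held 9.78% to 13.0% of reads without a feature, 3.80% to 4.50% multimapping, 1.92% to 2.08% ambiguous and 4.01% to 4.79% unmapped. Without stated strand, reads of overlapping opposite-strand genes cannot be told apart.

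The members and gene lists were chosen with earlier results of these data known. edgeR 4.0.16 in R 4.3.3 (TMM, filterByExpr with a minimum of 10 counts) was fitted on all 15 libraries with 1 coefficient per condition, and the quasi-likelihood test was adjusted by Benjamini-Hochberg over 14508 genes; a gene was called at adjusted p under 0.1. The named genes include every member called in a comparison of conditions without the replicate block, and only some of those called with the block or between replicate numbers. Per-library values are given for the largest changes and for the most highly counted member of each role. Alternatives were other filters and scalings, DESeq2 1.42.0, the replicate number as a block, only the libraries compared, a threshold of 0.05 and leaving out each library. Depth of 14982560 to 19070126 counts per library leaves counting error small beside replicate spread, as members had at least 505 raw counts in every library.

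Replicate numbers come from the sample titles. Deviations from condition means of same-numbered libraries correlated on average at 0.26 over 30 pairs and 13075 genes, where libraries that share only a number would be near 0. Every pair exceeded 0.1 for Stag1-/- against wild-type, siStag1 in wild-type, siStag1 in Stag2-/- and Stag1-/- against Stag2-/-, and not for the other comparisons.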

Additional observations from a re-analysis of the deposited data

How the results depend on the processing

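No call of a member turned direction under the alternatives run, and of 18 calls in the comparisons of conditions 9 were kept under every alternative other than leaving out a library and 4 under those too (Gar1 in both Stag2-/- conditions, Npm3 in Stag2-/- siGLO and Noc2l in Stag2-/- siStag1). The number of members called in Stag1-/- against wild-type cells, 1 in the report, was 2 with no expression filter, 3 with library size alone, 2 with DESeq2, 3 on only the libraries compared, 11 with the replicate block and 0 at an adjusted p under 0.05. For Stag2-/- siGLO it was 3 at 0.05 and for the direct comparison of the knockouts 9 with library size alone, 14 with the block, 2 on only the libraries compared and 2 at 0.05. For replicates 2 and 3 it was 14 with DESeq2 and 4 at 0.05. In Stag2-/- siGLO and Stag2-/- siStag1 against wild-type, where numbers were shared but not every pair correlated, the replicate block gave 18 and 13 members. In Stag2-/- siGLO all 18 were higher (42.9%, and 19.9% of all genes) and 0 lower (19.6% of all genes), with 3 of the 4 RNA polymerase I genes among them, and in Stag2-/- siStag1 10 were higher (23.8%, and 27.5% of all genes) and 3 lower (7.14%, and 26.3%). Of the 15 libraries, 14 correlated best with their own number. With siStag1 in Stag2-/- cells the block gave 4, and it changed no other call count, 0 staying 0 for siStag1 in wild-type cells and for the difference. Leaving out a library gave 0 to 2 members for Stag1-/-, 2 to 10 for Stag2-/- siGLO, 4 to 6 for Stag2-/- siStag1, 0 to 5 for siStag1 in Stag2-/- cells and 0 to 8 between the knockouts. It gave 13 to 32 between replicates 1 and 2, 33 to 39 between 1 and 3, and 0 to 16 between 2 and 3. In the comparisons of conditions, leaving out a library also left the replicate numbers unequal between conditions, in fits without a replicate term. The cause of these changes was not tested. Depth limits no statement here, since all members were well counted, while 3 libraries per condition and 1 clone per genotype limit every comparison.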
